A study of Mus musculus with 12 samples.

Results

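The homeostatic and lymphoid chemokines described here are 7 genes, Cxcl12, Cxcl13, Cxcl14, Cxcl16, Ccl19, Ccl21a and Cx3cl1, taken as every row of the 12 deposited matrices whose symbol is one of these names. They are 7 of 27933 symbols and fill 9 rows, because Ccl19 and Ccl21a each have a second identifier on a scaffold outside the chromosomes. The cells were live CD45-negative cells of the hind limb joints of wild-type C57BL/6 mice, so leukocytes had been depleted and every level below is that of stromal cells and of the few other cells left over. Arthritis was induced in male mice of 8 to 10 weeks by intravenous injection of 100 µl of serum from K/BxN animals (serum transfer-induced arthritis, STIA), except at rest. There were 3 libraries per label: rest, from untreated animals at day 0; peak, taken between days 7 and 9 after serum; resolving, from day 15; and, at day 22, resolved. Each library pooled the joints of 3 animals.

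Chemokines are small secreted proteins that attract cells carrying matching G protein-coupled receptors. The homeostatic ones are made continuously and place cells within tissues: Cxcl12 holds blood progenitors and lymphocytes in their niches through Cxcr4, Cxcl13 draws B cells into follicles through Cxcr5, and Ccl19 and Ccl21a guide T cells and dendritic cells to lymph nodes through Ccr7. Cxcl16 and Cx3cl1 are made as membrane proteins that can be shed, and the receptor of Cxcl14 is less settled.

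The libraries did not group by their labels. In summed fibroblast counts, the most similar library was in the same run of 3 consecutive barcode suffixes (1 to 3, 4 to 6, 7 to 9 or 10 to 12) for 12 of 12 libraries and carried the same label for 0 of 12. A suffix is only the number of a library. Each run holds 3 different labels, in suffix order rest 1, peak 1 and resolving 1 in the first, resolved 1, rest 2 and peak 2 in the second, resolving 2, resolved 2 and rest 3 in the third, and peak 3, resolving 3 and resolved 3 in the last. No source used here says what a run shares, so levels are given below by label and by suffix. Whether each library carries its own label could not be told from the files, and every value by label is that of the libraries labelled so. No cell barcode was shared between libraries. Of 21042 deposited cells 20060 were kept, 1227 to 2747 per library, and each library had a median of 5358 UMIs (unique molecular identifiers, counts of single transcripts) per deposited cell.

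Cells were clustered without the chemokine genes and named from marker genes. The 10 fibroblast clusters held 11148 cells, followed by vascular endothelial cells (1768), osteoblasts (1426), tenocytes (736), perivascular cells (658), proliferating cells (627), chondrocytes (313), muscle cells (266), lymphatic endothelial cells (186), immune cells (112), Schwann cells (108) and erythroid cells (61). A pair of further clusters carried all 7 fibroblast markers but were kept apart because Hp, a marker listed for marrow reticular cells, was among their 10 leading genes and no fibroblast marker was. They were led by Cxcl5 and Saa3 (1384 cells) and by Col5a3 and Il1rl1 (1135 cells). The Cxcl5 and Saa3 cluster made up 24.8 to 26.6% of the cells in the libraries with suffixes 4 to 6, 2.80 to 3.25% in those with suffixes 7 to 9 and 0% in the others. The Col5a3 and Il1rl1 cluster made up 9.87 to 17.6% in suffixes 7 to 9, 3.45 to 8.63% in suffixes 4 to 6 and 0.176 to 0.561% elsewhere. In fibroblasts the defining markers Dcn and Pdgfra were seen in 99.8 and 50.5% of cells. Levels are CPM, the UMIs of a gene divided by all UMIs and scaled to the same total for every library, of the summed cells of one type in one library, for sums of at least 10 cells.

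On GRCm38, the build of the annotation used here, Cxcl12 is at chr6:117168535-117181367 and Cxcl13 at chr5:95956951-95961068, both on the plus strand. Cxcl14 (chr13:56288643-56296551) and Cxcl16 (chr11:70453983-70459984) are on the minus strand and Cx3cl1 (chr8:94772009-94782427) on the plus strand. Ccl19 (chr4:42754525-42756577) and Ccl21a (chr4:42772860-42773993) are neighbours on the minus strand, 16282 bases apart. All are protein-coding genes. The 250 bases before the RefSeq start are printed for Cxcl12, Cxcl13 and Cxcl14, 3 members that were high in the same fibroblast clusters (GRCm38.p6, read along the strand of the gene). Capitals mark TATAAA, the only motif found in them.
Cxcl12, chr6:117168285-117168534: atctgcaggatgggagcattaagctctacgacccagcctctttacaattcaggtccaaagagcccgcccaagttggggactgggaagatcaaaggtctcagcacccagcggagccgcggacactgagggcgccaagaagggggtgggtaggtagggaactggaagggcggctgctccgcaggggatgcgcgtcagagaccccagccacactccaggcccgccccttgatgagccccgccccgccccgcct
Cxcl13, chr5:95956689-95956938: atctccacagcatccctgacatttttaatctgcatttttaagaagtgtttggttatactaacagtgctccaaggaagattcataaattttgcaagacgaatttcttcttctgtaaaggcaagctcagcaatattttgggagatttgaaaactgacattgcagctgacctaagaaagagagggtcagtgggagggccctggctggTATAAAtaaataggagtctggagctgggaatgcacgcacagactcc
Cxcl14, chr13:56296552-56296801: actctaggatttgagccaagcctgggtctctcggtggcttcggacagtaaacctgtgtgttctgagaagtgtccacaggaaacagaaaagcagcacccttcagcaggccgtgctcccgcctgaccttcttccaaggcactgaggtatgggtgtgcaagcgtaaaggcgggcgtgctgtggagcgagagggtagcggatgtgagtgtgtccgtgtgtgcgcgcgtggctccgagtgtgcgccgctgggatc
TATAAA and the NF-kB consensus were searched on both strands in the 6 members with a RefSeq promoter entry, which excludes Cxcl16. TATAAA was found in Cxcl13 (bases -46 to -41 before the start) and Cx3cl1 (bases -6 to -1), against 12.37% of 32851 mouse promoters of that length. The NF-kB consensus was found in none of the 6, against 7.251% of all promoters. These are matches of letters and not sites of a bound factor.

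Ccl21a has near-identical copies on the same chromosome, so a read from a stretch they share does not tell them apart. Of its 75-base transcript windows, the length of the sequenced read, 61.3% occur without a difference in Ccl21b, Gm10591, Gm13304 or Gm21541, and 50.5% of the windows of Ccl19 occur in its pseudogenes or gene models. No window of the other 5 members was shared. The 870-base transcripts of Ccl21a and Gm21541 differ at 6 bases, 2 of them in the coding sequence. One of these, C269T, counted from 1 at the 5′ end of the transcript and capitalised here, shows how little separates the pair.
Ccl21a, bases 254 to 283: cggcaatcctgttctCaccccggaagcact
Gm21541, bases 254 to 283: cggcaatcctgttctTaccccggaagcact
Of these genes Ccl21a received 25533 UMIs under its placed identifier and 3 under the other, Gm21541 received 156, Ccl21b 54 and Gm13304 8. Of the Gm21541 windows 97.0% occur in Ccl21a or another copy, so few of its reads could be told apart. These counts are therefore not relative levels of the copies. The 1590 UMIs of Ccl19 all fell on its placed identifier.

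The members were carried by different cell types. Cxcl12 was spread over fibroblasts and vascular endothelium, Cxcl13 was found in rare fibroblasts, Cxcl14 was high in fibroblasts, osteoblasts and tenocytes, Ccl19 averaged highest in perivascular cells, by the level of 3 libraries, and Ccl21a was a product of lymphatic endothelium. Each of 11 types was compared with fibroblasts in 1 fit over all library sums (edgeR quasi-likelihood test with library as a block, Benjamini-Hochberg adjustment over all genes, called where the adjusted p was under 0.05 and the log2 change exceeded 0.5 up or down). Of 66 pairs of a member and a type, 4 were called higher than fibroblasts and 36 lower, where 13.7% and 18.6% of all pairs of a gene and a type were called in those directions. The higher count was 7 without rest 2 or without resolved 1. For 6 of the 36 the type held no UMI of the member. Cx3cl1 did not pass the filter on low counts in this fit and was not tested. The clusters were cut from other genes of the same cells. These p-values therefore describe how evenly over libraries a member differed between cell groups that were already distinct.

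**Figure D1:**
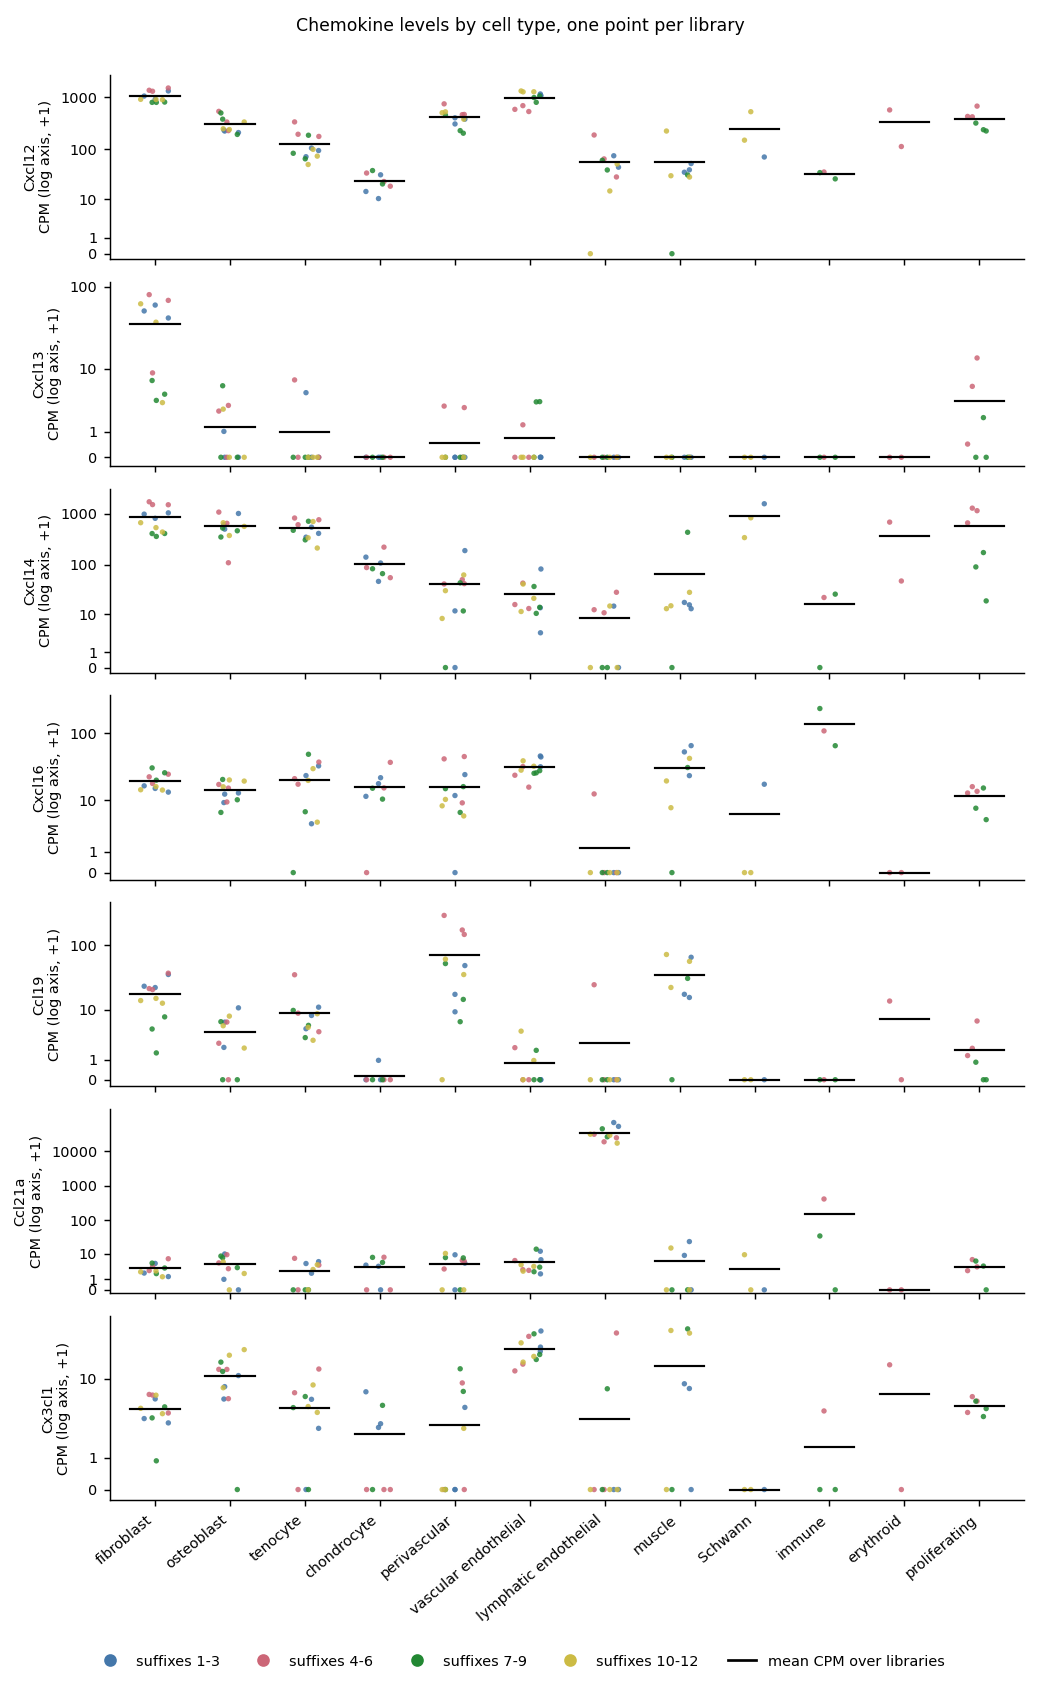
Level of each member (CPM, log axis of CPM + 1) in the sums of each cell type, with 1 point per library coloured by run of 3 suffixes and bars at the mean over libraries. Ccl21a stands at a mean of 33845 CPM in lymphatic endothelium and at 0 to 150 in every other type, while Cxcl12 reaches similar heights in fibroblasts and vascular endothelium.

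Cxcl12 averaged 1042 ± 253 CPM (SD, n = 12 libraries) in fibroblasts and 981 ± 271 in vascular endothelial cells. Endothelium over fibroblasts was -0.28 on the log2 scale (SE 0.18) and did not pass the threshold (adjusted p = 0.168, edgeR). At least 1 UMI was seen in 65.9% of fibroblasts (Wilson 95% interval 65.0 to 66.8) and 79.4% of vascular endothelial cells (77.4 to 81.2), although the endothelial cells were shallower (median 3176 against 5358 UMIs). With every cell thinned to 2000 UMIs, and 208 fibroblasts and 202 endothelial cells below that depth left out, these shares were 49.2 and 67.2%. The intervals cover counting error only. Perivascular cells followed at 420 ± 144 CPM, lower than vascular endothelium by 1.27 on the log2 scale (adjusted p = 2.70e-08, edgeR), then proliferating cells at 383 ± 166 (n = 6) and osteoblasts at 304 ± 114. Tenocytes, at 127 ± 81.6, were higher than lymphatic endothelial cells, at 56.5 ± 51.3 (n = 10, adjusted p = 2.56e-05, edgeR). In the full order erythroid cells (340 CPM, n = 2) stood before osteoblasts and Schwann cells (248, n = 3) between osteoblasts and tenocytes. Muscle (55.1, n = 8) and immune cells (32.2, n = 3) came after lymphatic endothelial cells. The other neighbours in that full order did not differ beyond the threshold. Osteoblasts and tenocytes were not neighbours in it. Chondrocytes were lowest, at 23.9 ± 9.82 CPM (n = 8). Lymphatic endothelium was lower than vascular endothelium by -4.51 on the log2 scale (SE 0.31, adjusted p = 3.29e-23, edgeR).

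Of the named cell types, Cxcl13 was highest in fibroblasts. It averaged 35.9 ± 29.1 CPM there, against 3.64 in proliferating cells and at most 1.27 in every other type. In fibroblasts 221 cells of 11148 held a UMI (1.98%, Wilson 95% interval 1.74 to 2.26), against 4 of 1768 vascular endothelial cells (0.226%). The level came from few cells with many transcripts. A group of 58 fibroblasts with 10 or more UMIs held 81.3% of the 2229 fibroblast UMIs, and 1 cell of peak 3 held 411 of the 653 UMIs of that library. No UMI was seen in 313 chondrocytes, 266 muscle cells or 186 lymphatic endothelial cells, which allows shares of cells with a UMI of up to 0.958%, 1.13% and 1.61%. These limits are on cells with a UMI and not on cells that express the gene.

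Cxcl14 was seen in fibroblasts, osteoblasts, tenocytes and proliferating cells. Fibroblasts averaged 873 ± 489 CPM, osteoblasts 581 ± 270 and tenocytes 526 ± 203 (n = 12 each). Neither osteoblasts (log2 fold change -0.52, adjusted p = 0.125) nor tenocytes (-0.50, adjusted p = 0.217) passed the edgeR test against fibroblasts. A UMI was present in 42.2% of fibroblasts, 31.4% of osteoblasts and 49.6% of tenocytes. Proliferating cells, which were deeper (median 11945 UMIs), held 568 ± 561 CPM (n = 6) with a UMI in 50.2% of cells and were called lower than fibroblasts (log2 fold change -0.99, adjusted p = 0.0186, edgeR). Thinned to 2000 UMIs the shares were 31.5% in fibroblasts, 23.5% in osteoblasts, 35.5% in tenocytes and 29.8% in proliferating cells. In the Cxcl5 and Saa3 cluster kept apart, 80.2% of cells held a UMI, and 58.6% after thinning. Schwann cells reached 1582, 344 and 840 CPM in the 3 libraries with enough of them, with a UMI in 14 of 108 cells. Vascular endothelial cells stood at 25.8 ± 22.3 CPM and perivascular cells at 41.4 ± 51.8, lower than fibroblasts by log2 fold changes of -5.20 (adjusted p = 5.05e-25, edgeR) and -4.49 (adjusted p = 1.96e-19). Cxcl14 was thus low in the vascular endothelium, in which Cxcl12 was high.

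The membrane-bound pair were low in all stromal types. Cxcl16 was highest in immune cells, at 107, 65.4 and 226 CPM in the 3 libraries with at least 10 of them, and was called higher there than in fibroblasts (19.4 ± 5.59 CPM, log2 fold change 2.45, SE 0.41, adjusted p = 7.47e-07, edgeR). These are the few leukocytes left after depletion, a mixed cluster led by S100a8 and Ngp. At a Leiden resolution of 2, immune cells formed a cluster led by Cd74 and Ctss (71 cells) and one led by Ngp and S100a9 (41 cells). Which of them carried Cxcl16 was not tested. Vascular endothelium held 31.3 ± 8.74 CPM of Cxcl16 (log2 fold change 0.50, adjusted p = 0.0120, under the fold limit) and lymphatic endothelium 1.25 (1 UMI in 186 cells). Cx3cl1 had 788 UMIs in all kept cells. It averaged 19.8 ± 5.83 CPM in vascular endothelium, with libraries between 12.01 and 29.8, and 4.66 ± 1.76 in fibroblasts, with libraries between 0.861 and 6.82, so that these ranges did not overlap. Osteoblasts lay between at 10.6 ± 5.36.

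The Ccr7 ligands had separate sources. Ccl21a reached 33845 ± 15726 CPM in lymphatic endothelial cells (n = 10 libraries), a log2 fold change over fibroblasts of 12.63 (SE 0.28, adjusted p = 1.27e-60, edgeR). A UMI was present in 156 of the 186 cells (83.9%, Wilson 95% interval 77.9 to 88.5). Every other type had a UMI in 0.926 to 4.78% of its cells, nearly always a single one: the 199 fibroblast UMIs were in 199 cells. Thinned to 2000 UMIs, these shares were 0.622% in fibroblasts, 0.639% in vascular endothelium, 0.853% in osteoblasts, 1.89% in immune cells (6 of 112 left out as too shallow) and 2.58% in muscle cells (33 of 266 left out). Whether these UMIs come from free RNA was not tested. The second type called higher for Ccl21a, immune cells (log2 fold change 5.49), rested on 1 cell of peak 2 with 93 of the 95 UMIs. Without that library the immune difference was not called (adjusted p = 0.348, edgeR), and removing predicted doublets also ended it.

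Ccl19 averaged highest in perivascular cells, at 69.9 ± 84.9 CPM (n = 12) against 18.2 ± 11.2 in fibroblasts (log2 fold change 1.73, SE 0.24, adjusted p = 2.39e-09, edgeR). A UMI was seen in 71 of 658 perivascular cells (10.8%), 721 of 11148 fibroblasts (6.47%) and 6 of 1768 vascular endothelial cells (0.339%). Muscle cells held 35.3 ± 26.4 CPM (n = 8), which did not pass the test against fibroblasts (log2 fold change 1.10, adjusted p = 0.0526, edgeR) or perivascular cells (adjusted p = 0.315). The perivascular rank rests on suffixes 4 to 6, where perivascular cells averaged 197 CPM and no muscle sum reached 10 cells. In suffixes 1 to 3, 7 to 9 and 10 to 12 perivascular cells averaged 25.3, 24.6 and 32.4 CPM, muscle cells 33.0, 15.6 and 50.6, and fibroblasts 27.4, 4.61 and 14.05. Without the libraries of suffixes 4 to 6, a choice made after seeing the data, perivascular cells over fibroblasts were at 0.80 on the log2 scale and were not called (adjusted p = 0.0525, edgeR). Lymphatic endothelial cells, the source of Ccl21a, had Ccl19 in 1 cell.

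The perivascular signal lay in 1 of 2 clusters. When the perivascular cells were divided at a finer resolution, a choice made after the values were seen, the cluster led by Higd1b, Rgs5 and Cck (483 cells) held 92.2 ± 99.0 CPM of Ccl19 and the cluster led by Pln, Cnn1 and Myh11, contractile genes of smooth muscle (172 cells), held 0 in 6 of 7 libraries and 13.3 CPM in peak 3. The difference was 4.58 on the log2 scale (SE 0.62, adjusted p = 1.24e-07, edgeR), where 17.2% of genes were called higher. Cxcl12 (1.91, adjusted p = 2.43e-07) and Cxcl14 (2.88, adjusted p = 0.00449) were also higher in the Rgs5 cluster.

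The vascular endothelial cells formed a cluster led by Timp4, Aqp7 and Car4 (1088 cells) and one led by Selp, Plvap and Vwf (680 cells). The second also passed the limits for 2 of 8 perivascular markers. Cxcl12 was 0.43 higher in the first on the log2 scale (SE 0.16, adjusted p = 0.0414, edgeR), under the fold limit, so Cxcl12 was present in both.

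Among the fibroblasts the levels of the chemokines differed between clusters. Each of the 10 fibroblast clusters and the 2 clusters kept apart was compared with the mean of the others. Of 60 pairs of a member and a cluster 25 were called higher and 17 lower, where 12% and 10.3% of all pairs of a gene and a cluster were called. Cxcl12 and Cxcl13 were each called higher in 5 of the 12 clusters, Cxcl14 and Ccl19 in 6 and Cxcl16 in 3. Ccl21a and Cx3cl1 did not pass the filter. Cxcl12, Cxcl13, Cxcl14 and Ccl19 were all called higher in the cluster led by Inmt, Serpina3c and Penk (1080 cells) and in the cluster led by Ifi205, Ccl7 and Ptx3 (1584 cells).

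**Figure D2:**
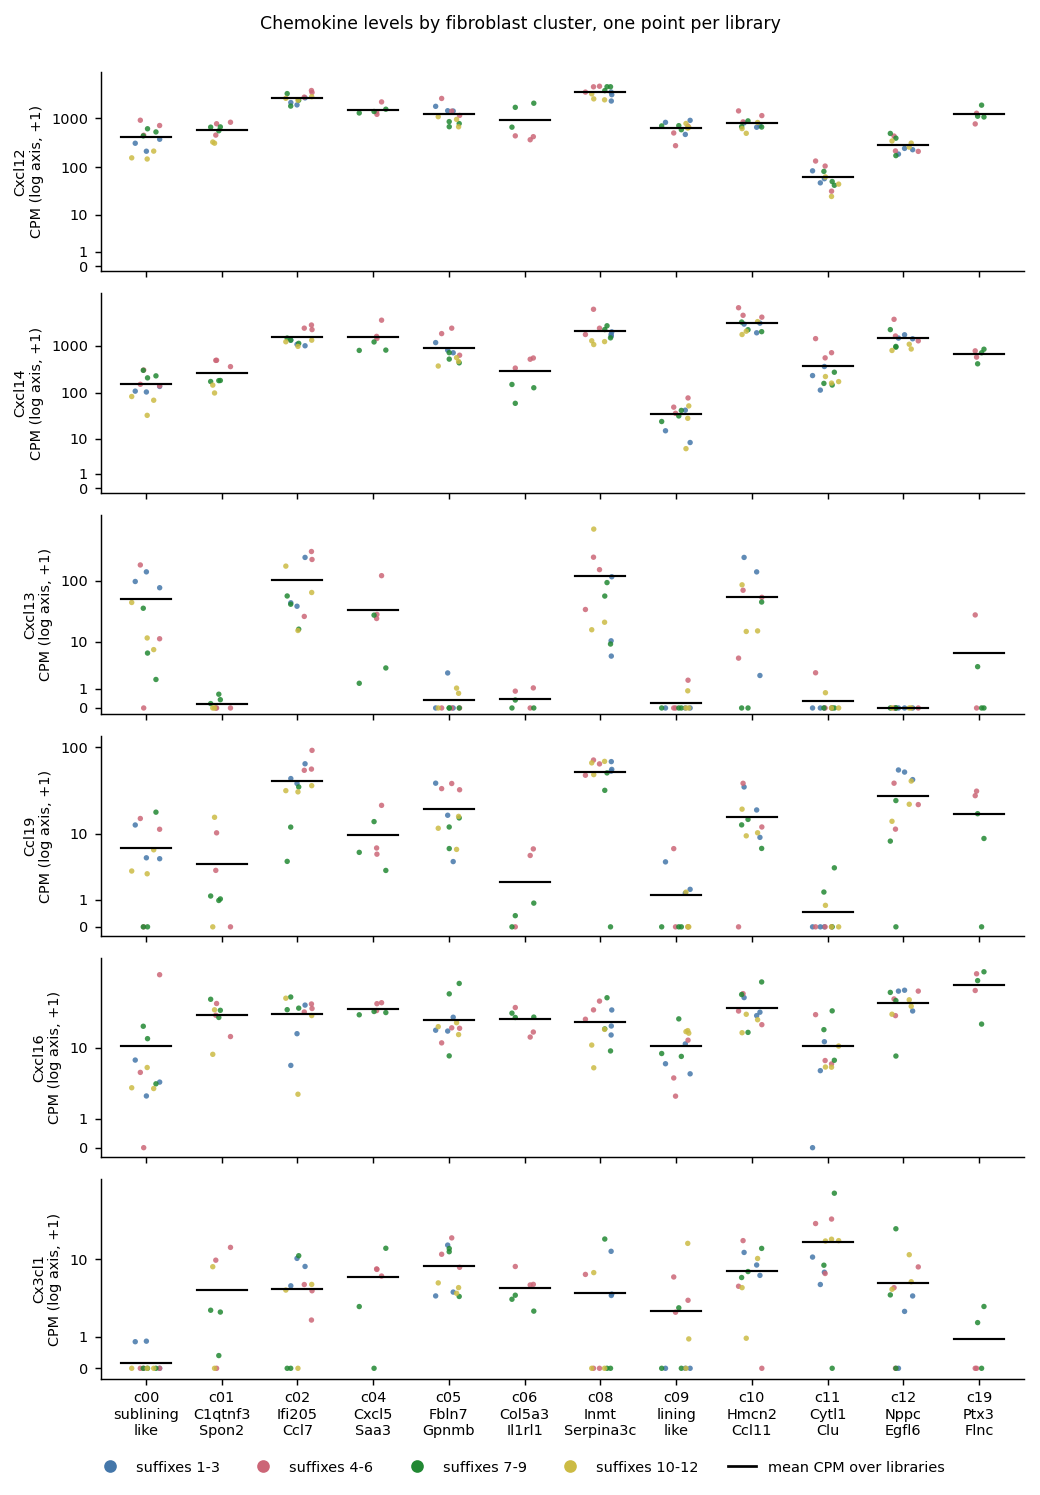
Level of 6 members (CPM, log axis of CPM + 1) in each fibroblast cluster and both clusters kept apart, with 1 point per library coloured by run of 3 suffixes and bars at the mean over libraries. Cxcl12 averages 3388 CPM in the Inmt and Serpina3c cluster and 64.5 in the Cytl1 and Clu cluster, and Cxcl14 averages 34.7 in the lining-like cluster.

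Cxcl12 averaged 3388 ± 808 CPM in the Inmt and Serpina3c cluster (log2 fold change over the other clusters 2.42, SE 0.13, adjusted p = 2.44e-34, edgeR) and 2558 ± 566 in the Ifi205 and Ccl7 cluster (2.27, adjusted p = 3.61e-32). Between these the difference of 0.13 did not pass the test (adjusted p = 0.633). All 24 sums lay between 1747 and 4402 CPM. The Cytl1 and Clu cluster, which also carried Tnfrsf11b and Cilp, had the lowest level at 64.5 ± 32.03 CPM (log2 fold change -3.79, adjusted p = 3.22e-30). The lining-like cluster with Prg4 (lubricin), Clic5 and Htra4 stood at 639 ± 169 and was not called (-0.24, adjusted p = 0.190). The sublining-like cluster with Pi16 and Dpp4 stood at 420 ± 235 CPM and was called lower (-1.10, adjusted p = 3.44e-08).

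Cxcl14 was highest in the Hmcn2 and Ccl11 cluster, at 3040 ± 1325 CPM (log2 fold change 2.69, SE 0.13, adjusted p = 1.64e-36, edgeR). The Inmt and Serpina3c cluster followed at 2075 ± 1272, a difference that did not pass the threshold (0.54, adjusted p = 0.0537). The Cxcl5 and Saa3 cluster kept apart averaged 1534 CPM (n = 6) and held 32.7% of the Cxcl14 UMIs of all kept cells. The lining-like cluster was lowest, between 5.77 and 78.2 CPM across the 12 libraries (mean 34.7 ± 20.5, log2 fold change -4.39, adjusted p = 3.45e-33). Every library had less Cxcl14 in its lining-like cells than any library had in its Hmcn2 and Ccl11 cells, where the lowest value was 1714. The Nppc and Egfl6 cluster had a high Cxcl14 level (1477 ± 776 CPM) and a low Cxcl12 level (290 ± 103), which sets the members apart from each other.

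Cxcl13 was found in the Inmt and Serpina3c (117 ± 184 CPM), Ifi205 and Ccl7 (101 ± 97.8), Hmcn2 and Ccl11 (55.5 ± 70.5) and Pi16 and Dpp4 (50.8 ± 59.4) clusters and in the Cxcl5 and Saa3 cluster kept apart (34.4 ± 43.8, n = 6). The SD was near or above the mean in all 5. In the Inmt and Serpina3c cluster a cell of peak 3 held 411 of the 672 Cxcl13 UMIs. The mean of that cluster therefore leaned on this cell, which was also part of the test that called Cxcl13 higher there. A UMI was present in 3.61, 4.80, 2.55, 4.05 and 5.64% of the cells of these clusters, in the order given. Thinned to 2000 UMIs, the shares were 3.24, 3.71, 1.92, 3.22 and 2.89%. The Nppc and Egfl6 cluster held no UMI of Cxcl13 and the lining-like cluster held 2. No fold is given for Cxcl13, since the comparison included clusters at or near 0.

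Ccl19 averaged 52.9 ± 20.3 CPM in the Inmt and Serpina3c cluster (log2 fold change 3.01, SE 0.21, adjusted p = 2.88e-25, edgeR) and 42.1 ± 23.6 in the Ifi205 and Ccl7 cluster (2.86, adjusted p = 5.90e-26). The Nppc and Egfl6 cluster stood at 27.9 ± 18.2 (2.02, adjusted p = 1.23e-12), and the Cytl1 and Clu cluster at 0.479 with 3 UMIs in all. Cxcl16 was highest in the Ptx3 and Flnc cluster (49.0 ± 19.6 CPM, n = 5, log2 fold change 1.39, adjusted p = 0.000101) and lower in the Pi16 and Dpp4 cluster (10.5 ± 16.9, -1.71, adjusted p = 1.06e-10). Cx3cl1 had 82 UMIs in the Cytl1 and Clu cluster (15.1 ± 12.3 CPM) and 2 in the Pi16 and Dpp4 cluster. The cluster poorest in Cxcl12 and Ccl19 was therefore the one in which Cx3cl1 averaged highest.

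By label, no member was called in fibroblasts. In the edgeR fit of all 12 libraries, 0 of 21 tests (7 members, each later label over rest) passed, 0 of 21 had an unadjusted p under 0.05 and 0% of 11731 genes were called. DESeq2 also called 0. Cxcl12 in fibroblasts was 906, 1355 and 793 CPM in the rest libraries, 1313, 1296.5 and 907 at peak, 1049, 804 and 892 at resolving and 1496, 794 and 901 at resolved. The ranges of the 4 labels overlapped. With the runs described next as a block, 0 members were called by label as well. In 6 other types 0 of 39 such tests passed, 4 of them with an unadjusted p under 0.05. Within the Ifi205 and Ccl7 cluster 0 of 15 passed, with 4 unadjusted p under 0.05 (smallest 5.8e-05, edgeR). In the other fibroblast clusters tested no label test of a member passed, and at most 2 per cluster had an unadjusted p under 0.05.

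By suffix, 5 of 7 members differed in fibroblasts, where 40.2% of all 11731 genes did (edgeR quasi-likelihood F-test over the 4 runs, Benjamini-Hochberg adjustment over all genes). The runs were known from earlier results to separate these libraries, so the p-values describe how far apart the runs lie relative to the spread within them.

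**Figure D3:**
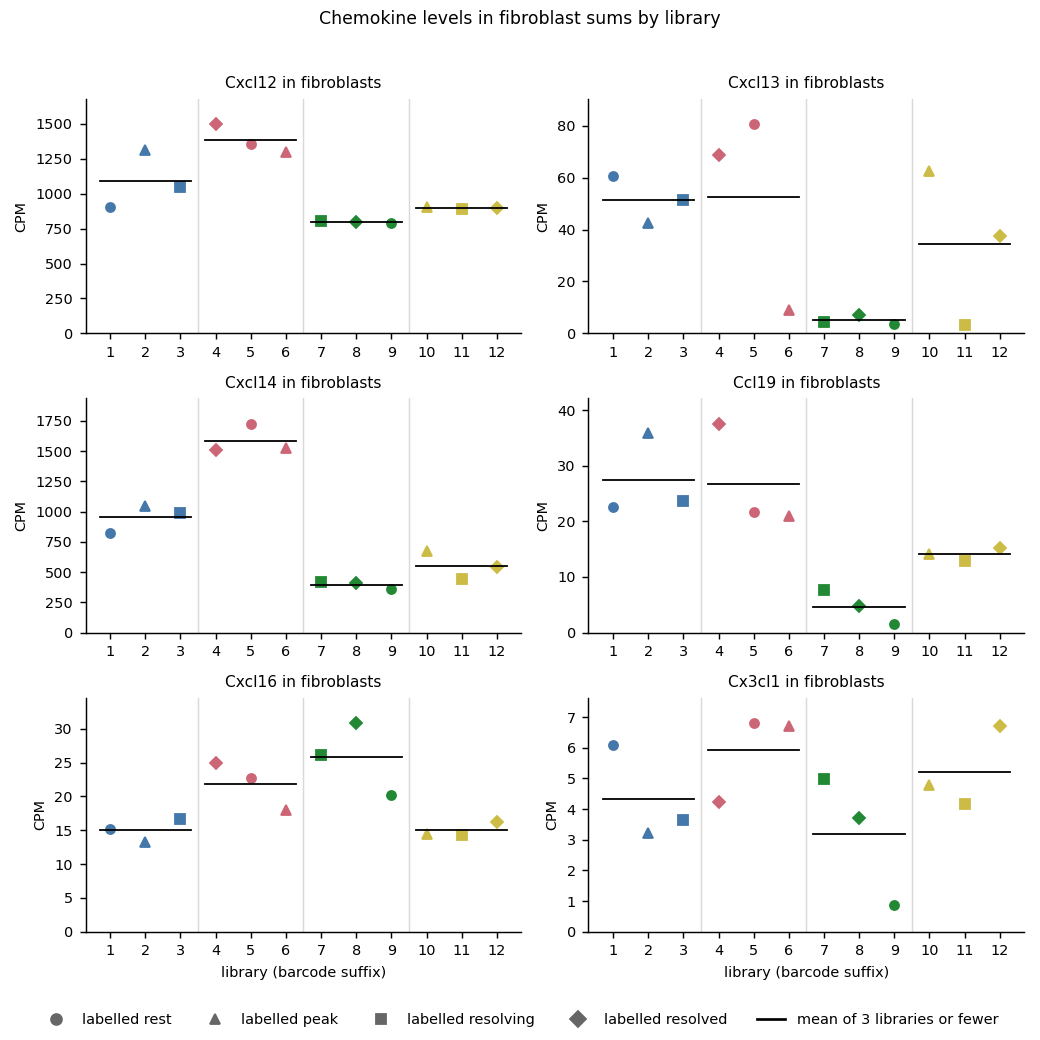
Level of 6 members in the fibroblasts of each library (CPM), in suffix order, with the label shown by the shape of the point and lines at the mean of each run of 3 suffixes. Cxcl14 lies between 1512 and 1729 CPM in suffixes 4 to 6 and between 363 and 415 in suffixes 7 to 9.

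Cxcl14 was 821, 1050 and 991 CPM in suffixes 1 to 3, 1512, 1729 and 1523 in suffixes 4 to 6, 415, 413 and 363 in suffixes 7 to 9, and 674, 443 and 540 in suffixes 10 to 12. The libraries with suffixes 4 to 6 were all above, and those with suffixes 7 to 9 all below, every other library. The F-test gave an adjusted p of 4.3e-06 (edgeR). On the log2 scale, suffixes 4 to 6 over 1 to 3 were at 0.80 (SE 0.16, adjusted p = 0.00466), where 5.63% of genes were called higher. Suffixes 7 to 9 over 1 to 3 were at -1.22 (SE 0.16, adjusted p = 8.22e-05), where 10.1% were called lower.

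Cxcl12 in fibroblasts was 906, 1313 and 1049 CPM in suffixes 1 to 3, 1496, 1355 and 1296.5 in suffixes 4 to 6, 804, 794 and 793 in suffixes 7 to 9, and 907, 892 and 901 in suffixes 10 to 12 (F-test adjusted p = 0.00126, edgeR). Suffixes 4 to 6 were higher than suffixes 7 to 9 and 10 to 12 without overlap but overlapped suffixes 1 to 3 (log2 fold change 0.40, SE 0.13, adjusted p = 0.0527). This call was lost at a Leiden resolution of 2 (adjusted p = 0.628). At that resolution a cluster led by C1qtnf3 and Spon2 (1154 cells) was named tenocyte, so the fibroblast sums held other cells.

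Ccl19 in fibroblasts was 22.6, 35.9 and 23.7 CPM in suffixes 1 to 3, 37.6, 21.8 and 20.98 in suffixes 4 to 6, 7.62, 4.69 and 1.51 in suffixes 7 to 9, and 14.1, 12.8 and 15.3 in suffixes 10 to 12 (adjusted p = 0.000413, edgeR). In suffixes 7 to 9 over 1 to 3 it was at -2.46 on the log2 scale (SE 0.35, adjusted p = 0.00016). Cxcl13 was 60.5, 42.4 and 51.4 CPM, then 68.8, 80.5 and 8.81, then 4.51, 6.98 and 3.66, then 62.6, 3.39 and 37.7, in the same order (adjusted p = 0.0215). Its values in suffixes 4 to 6 and 10 to 12 spanned nearly the whole range, and its call was lost without rest 3, resolving 2 or resolved 2 (largest adjusted p = 0.0749). Cxcl16 went the other way, at 25.8 ± 5.33 CPM in suffixes 7 to 9 against 15.0 ± 1.66 in suffixes 1 to 3 (log2 fold change 0.84, SE 0.16, adjusted p = 0.00146, where 12% of genes were called higher), and its F-test was not called with cells thinned to 2000 UMIs (adjusted p = 0.0925). Ccl21a and Cx3cl1 were not called.

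The makeup of the fibroblasts moved with the suffixes. The C1qtnf3 and Spon2 cluster held 44.4% of fibroblasts in suffixes 7 to 9 and 0.193 to 4.28% elsewhere. It averaged 568 CPM of Cxcl12, 266 of Cxcl14 and 4.06 of Ccl19 (n = 8 libraries). The Pi16 and Dpp4 cluster averaged 420, 156 and 6.62 CPM of the same members. In suffixes 1 to 3 the Pi16 and Dpp4 (22.1%) and Inmt and Serpina3c (19.3%) clusters were the largest, in suffixes 4 to 6 the Ifi205 and Ccl7 cluster (26.0%), and in suffixes 10 to 12 the Fbln7 and Gpnmb cluster (22.9%). With equal weight given to each of the 8 clusters present in every library, Cxcl12 averaged 1067 ± 44.7, 1441 ± 86.6, 1193 ± 117 and 983 ± 81.5 CPM in the 4 runs in order, and Cxcl14 averaged 1025 ± 100, 1929 ± 257, 1022 ± 256 and 786 ± 96.0 (SD, n = 3 each). On that scale suffixes 4 to 6 were still highest for both, and suffixes 7 to 9 were no longer lowest for either. Ccl19 still averaged lowest in suffixes 7 to 9, at 10.8 ± 6.94 against 26.4 ± 4.54, 27.2 ± 7.82 and 18.8 ± 0.468.

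Within single clusters, Cxcl14 was called over the runs in 6 of 8 clusters and Cxcl12 in 4 of 8. The 6 clusters for Cxcl14 were those led by Pi16, Ifi205, Fbln7, Inmt, Hmcn2 and Cytl1, with adjusted p from 0.000129 to 0.0253 (edgeR). In the 8 clusters in the order Pi16, Ifi205, Fbln7, Inmt, lining-like, Hmcn2, Cytl1 and Nppc, 6.98, 3.3, 4.71, 5.03, 20, 5.1, 13.6 and 1.38% of all genes were called. Cxcl13 was called in 1 of 4 clusters tested, Ccl19 in 0 of 4 and Cxcl16 in 0 of 4. With the cells of both clusters kept apart added to the fibroblasts, the 5 members remained called.

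In vascular endothelium Cxcl12 had another order over the suffixes. It was 1150, 1074 and 1072 CPM in suffixes 1 to 3, 529, 687 and 583 in suffixes 4 to 6, 983, 795 and 1053 in suffixes 7 to 9, and 1262, 1314 and 1268 in suffixes 10 to 12 (F-test adjusted p = 4.96e-05, edgeR), where 25.1% of genes were called. The 3 libraries with suffixes 4 to 6 were the lowest in the endothelium, while in fibroblasts 2 of them were the highest and the other, peak 2, lay just under peak 1 (suffix 2). Suffixes 4 to 6 over 1 to 3 were at -0.85 on the log2 scale (SE 0.14, adjusted p = 0.00019), where 9.88% of genes were called lower. The difference between endothelium and fibroblasts in this contrast was -1.23 (SE 0.17, adjusted p = 4.6e-05), and over all runs the adjusted p of the interaction was 1.08e-06, where 12.2% of genes were called.

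**Figure D4:**
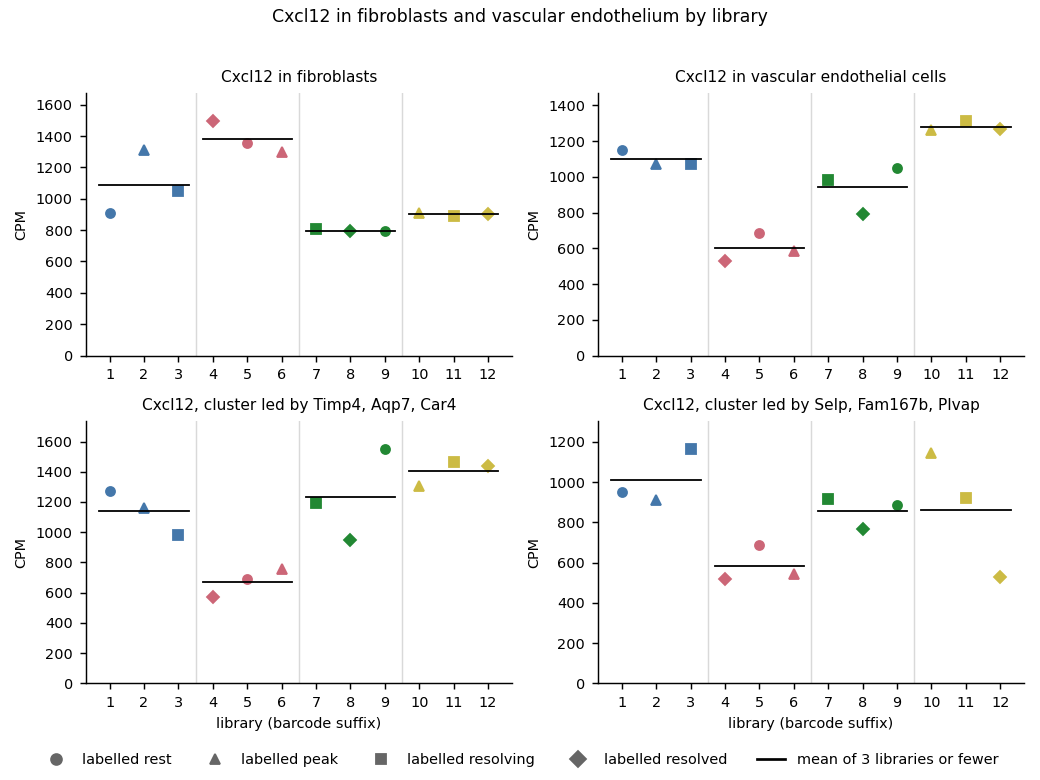
Cxcl12 (CPM) by library in suffix order, in fibroblasts, vascular endothelial cells and both endothelial clusters, with the label shown by the shape of the point and lines at the mean of each run of 3 suffixes. Fibroblasts reach 1296.5 to 1496 CPM in suffixes 4 to 6, where the endothelium falls to 529 to 687.

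The clusters of the endothelium were unevenly represented, with 257, 88, 93 and 650 cells of the Timp4 and Aqp7 cluster and 129, 211, 205 and 135 of the Selp and Plvap cluster in the 4 runs. In the Timp4 and Aqp7 cluster Cxcl12 was 1271, 1161 and 984 CPM in suffixes 1 to 3 and 569, 688 and 759 in suffixes 4 to 6 (-0.68 on the log2 scale, SE 0.18), which did not pass the test (adjusted p = 0.0924, edgeR). In the Selp and Plvap cluster it was 951, 914 and 1166 against 519.5, 686 and 542 (-0.78, SE 0.21, adjusted p = 0.0138, edgeR), where 9.95% of genes were called lower. In both clusters the values of suffixes 4 to 6 lay below those of suffixes 1 to 3 without overlap. Over all runs the F-test was called in the Timp4 and Aqp7 cluster (adjusted p = 0.0372, where 1.18% of genes were called) and missed the threshold in the Selp and Plvap cluster (0.05001), where resolved 3 was also low at 527 CPM. Rgs5, a perivascular marker, averaged 1244, 411, 585 and 1343 CPM in the Selp and Plvap cluster over the 4 runs in order. Whether a mixture of cells bears on Cxcl12 there was not tested.

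Ccl19 in perivascular cells was 49.1, 17.7 and 9.26 CPM in suffixes 1 to 3, 169, 279 and 145 in suffixes 4 to 6, 6.31, 14.7 and 52.7 in suffixes 7 to 9, and 35.8, 61.5 and 0 in suffixes 10 to 12 (F-test adjusted p = 0.000306, edgeR), where 25.7% of genes were called. The 3 libraries with suffixes 4 to 6 were above all others. Over suffixes 1 to 3 they were at 2.73 on the log2 scale (SE 0.54, adjusted p = 0.00177), where 10.6% of genes were called higher, and fibroblasts in the same contrast were at -0.0039 (SE 0.32). The difference between the types was called (2.96, SE 0.49, adjusted p = 6.99e-06), and 7.7% of genes had such an interaction over all runs. Within the Rgs5 cluster the values were 87.4, 36.8 and 27.8 against 243, 306 and 181 (log2 fold change 1.93, SE 0.52, adjusted p = 0.0154, where 8.47% of genes were called higher).

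Ccl21a in lymphatic endothelium was 66759 and 51766 CPM in the 2 libraries of suffixes 1 to 3 with enough cells, 30684, 18593 and 24295 in suffixes 4 to 6, 44038 and 25887 in 2 libraries of suffixes 7 to 9, and 30789, 28642 and 16998 in suffixes 10 to 12 (F-test adjusted p = 0.0145, edgeR), where 9.14% of genes were called. The suffixes 4 to 6 were lower than 1 to 3 (log2 fold change -1.33, SE 0.27, adjusted p = 0.00723, where 6.22% of genes were called lower). The call over the runs was lost without rest 1 or without rest 2 (largest adjusted p = 0.139). Cxcl12 in tenocytes was also called over the runs (adjusted p = 0.0322, edgeR), where 3.32% of genes were, and lost the call when any of 5 libraries was left out (rest 2, resolving 1, resolving 3, resolved 1 or resolved 3).

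**Figure D5:**
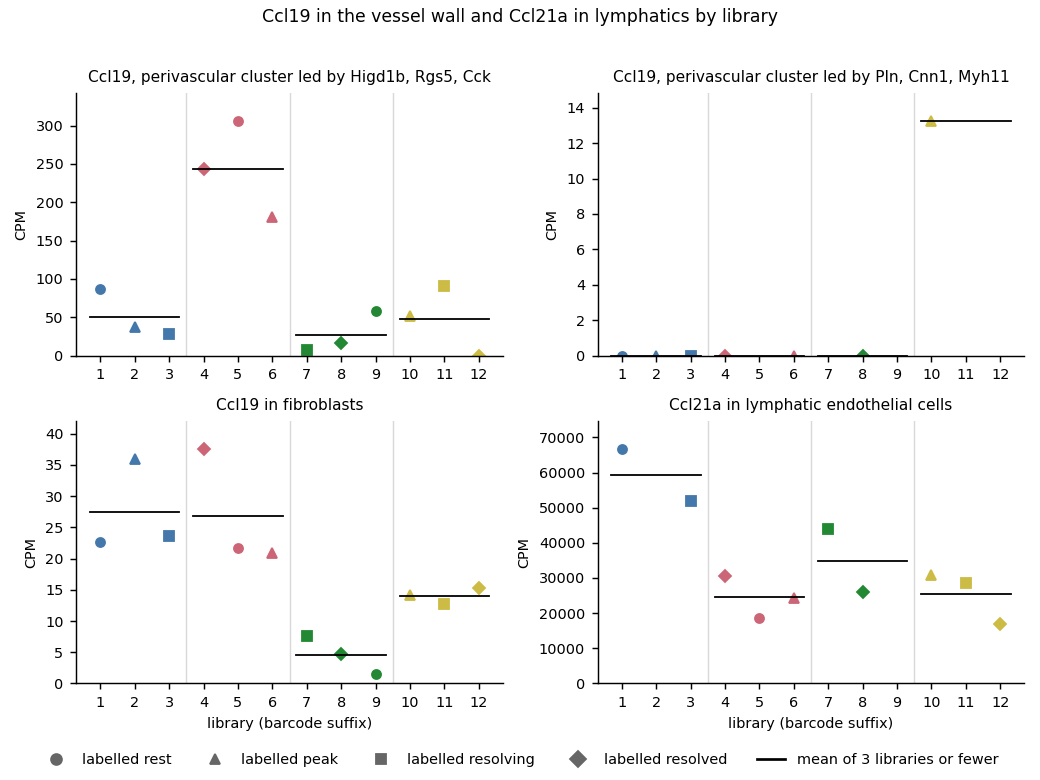
Ccl19 in both perivascular clusters and in fibroblasts, and Ccl21a in lymphatic endothelial cells (CPM), by library in suffix order, with the label shown by the shape of the point and lines at the mean of each run of 3 suffixes. Ccl19 in the Higd1b and Rgs5 cluster is 181 to 306 CPM in suffixes 4 to 6 and at most 90.4 elsewhere, and Ccl21a is highest in the libraries with suffixes 1 and 3.

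Receptors and scavengers of these chemokines, from a list of 9 genes, varied between cell types. Cxcr4, the signalling receptor of Cxcl12, was higher in vascular endothelium than in fibroblasts (log2 fold change 4.42, adjusted p = 4.2e-16, edgeR), and Ackr3, which removes Cxcl12, was lower there (-2.65, adjusted p = 1.1e-29). Of 7 tested genes of the list, 2 were higher and 4 lower in vascular endothelium, where 26.6% and 25.7% of all genes were called in those directions (median log2 change -2.005, the value of Cx3cr1, the receptor of Cx3cl1, against 0.03 over all genes). Ccr7, the receptor of Ccl19 and Ccl21a, was higher in immune cells (9.28, adjusted p = 2.5e-08), with Cxcr4 (5.57, adjusted p = 3.0e-07). In lymphatic endothelium Ackr2, a scavenger of inflammatory CC chemokines, was higher (2.21, adjusted p = 2.5e-12). Over the runs in fibroblasts 4 of 5 tested receptors differed, Ackr1, Ackr2, Ackr3 and Ackr4, where 40.2% of all genes did. Ackr3 was lower in suffixes 7 to 9 than in 1 to 3 (-1.05, adjusted p = 0.0028).

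Proteases that trim or shed these chemokines also varied. Dpp4, which clips Cxcl12, was higher in the Inmt and Serpina3c cluster (log2 fold change 0.80, adjusted p = 0.00998) and the Ifi205 and Ccl7 cluster (1.27, adjusted p = 5.4e-07), both high in Cxcl12. It was higher still in the cluster it leads with Pi16 (4.21, adjusted p = 1.12e-55), in which Cxcl12 was called lower. Dpp4 was a marker used to name that cluster and was not kept out of the clustering, so its p-value there tests nothing. Dpp4 was also higher in the Hmcn2 and Ccl11 cluster (2.37, adjusted p = 1.55e-18), in which Cxcl12 was not called. Adam10, a sheddase of Cxcl16 and Cx3cl1, was higher in vascular endothelium (1.47, adjusted p = 9.3e-24, edgeR), where Cx3cl1 averaged highest. Over the runs in fibroblasts 3 of 4 tested proteases differed (Dpp4, Mmp2 and Adam17), where 40.2% of all genes did.

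Signals of lymphoid stroma, which act upstream of Ccl19, Ccl21a and Cxcl13 in lymph nodes, were measured next. Relb (log2 fold change 0.85, adjusted p = 4.3e-06) and Nfkb2 (0.84, adjusted p = 0.00014), the subunits of the alternative NF-kB pathway, were higher in perivascular cells than in fibroblasts (edgeR), and 2 of 10 tested genes in this list were higher there and 1 lower, where 18.2% and 20.8% of all genes were, so the list's count lay near the background. In lymphatic endothelium Il7 (5.11, adjusted p = 1.7e-26) and Ltb (4.28, adjusted p = 6.9e-06) were higher. The Ifi205 and Ccl7 cluster had Icam1 (2.04, adjusted p = 4.4e-25), Nfkb2, Vcam1 and Relb higher and Tnfsf11 lower among 8 tested, where 18% of all genes were called higher and 12% lower. Over the runs in fibroblasts 8 of 10 differed, where 40.2% of all genes did.

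Of the factors of marrow reticular cells, which are rich in Cxcl12, 4 of 6 (Lepr, Ebf3, Kitl and Ebf1) were called higher in the Inmt and Serpina3c cluster, in the Ifi205 and Ccl7 cluster and in the Hmcn2 and Ccl11 cluster, where Foxc1 was lower. Of all genes 10.4, 18 and 11.2% were called higher in these 3 clusters, and 7.6% lower in the last. Lepr in the first had a log2 fold change of 1.81 (adjusted p = 2.6e-07, edgeR), and Kitl in the second 2.096 (adjusted p = 4.3e-18). In the lining-like cluster Lepr (-4.23, adjusted p = 4.7e-09) and Kitl (-1.39, adjusted p = 1.8e-05) were lower. None of the 4 lists had a gene called by label in fibroblasts. Unlike the chemokines, the genes of the 4 lists were not kept out of the clustering. Lepr, Kitl, Foxc1 and Ebf3 were also markers for naming marrow reticular cells. Their p-values between types and clusters describe groups that these genes may have helped to form.

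The genes most like each member over 100 sums of a type in a library were found by Pearson correlation of log2(CPM + 1), as a description over points that share libraries. Ccl21a was closest to Mmrn1 (r = 0.952), a lymphatic marker, then Tc2n (0.922). Cxcl14 was closest to Olfml3 (0.818), Dcn (0.813) and Serpinf1 (0.799), Cxcl13 to Ccl8 (0.753) and Serpina3c (0.744), and Cxcl12 to Atp8b1 (0.733), Pcdh19 (0.731) and Nrp1 (0.717). Ccl19 was closest to Rarres2 (0.697) and Cxcl1 (0.673). The highest values for Cxcl16 (Ap4b1, 0.617) and Cx3cl1 (Polg2, 0.604) were lower.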

How the data were processed

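The deposited matrices hold UMI counts per gene and cell, made by the authors with Cell Ranger on mm10 from 10x 3′ libraries. Every library has the same median depth, and how it was levelled is not given in the sources used here. Cells with 500 to 5000 genes, more than 500 UMIs and fewer than 20000 to 40000 UMIs (a limit per library) were kept. Scrublet called 54 cells (0.269%) and no doublets were removed. Cells were scaled to 10000 counts and clustered with scanpy 1.11.5 (2000 genes without chemokines, 30 components, 20 neighbours, Leiden resolution 1). Marker limits for naming clusters were set after the clusters were seen.

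Counts were summed per library and unit (at least 10 cells) and tested with the quasi-likelihood test of edgeR 4.0.16 (TMM, filterByExpr, Benjamini-Hochberg over all genes), with DESeq2 1.42.0 as an alternative. Libraries are pools of animals. In the label and run fits the p-values measure the spread between libraries. In the type, cluster and interaction fits, which hold library as a block, they measure the spread left between sums after the level of each library is removed. The named genes are all members, all genes of 4 lists and the 3 genes most like each member. Members and lists were chosen with earlier results of these data known. Replicate numbers were not used to pair libraries. Finer vessel clusters, equal weighting of clusters, fits with both clusters kept apart and a fit without suffixes 4 to 6 were added after seeing the data. The scripts were tested on simulated data. Other settings tried were 2 other resolutions, other cell and sum limits, thinning to 2000 UMIs and leaving out each library. Another left out the 6% of cells with the highest Scrublet scores in each library, whether or not they were called.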

Additional observations from a re-analysis of the deposited data

Results flagged for a closer look

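In 6 of 35 groups of 4 to 10 libraries, the highest library stood far from the others. The rule marks about 1 group in 20 for independent, normally distributed values. These groups share libraries and some levels rest on few UMIs, so the 6 cannot be read against that rate. In the Cxcl5 and Saa3 cluster, rest 2 was highest for Cxcl12 (2121 CPM, next 1510), Cxcl13 (120 CPM, next 28.7) and Cxcl14 (3433 CPM, next 1566), so the same library stood apart for 3 members. In lymphatic endothelial cells Cxcl12 was 187 CPM in resolved 1 (next 74.3), with 15 UMIs in 3 of 13 cells. In muscle cells Cxcl12 was 223 CPM in resolved 3 (next 52.5), with 34 UMIs in 8 of 44 cells, and Cxcl14 was 438 CPM in rest 3 (next 28.5), with all 14 UMIs in 1 of 14 cells.

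The differences between runs of suffixes were unlike those of fibroblasts in other types, by an interaction test (edgeR, adjusted p): for Cxcl12 in vascular endothelium (1.08e-06) and Ccl19 in perivascular cells (1.64e-05), described above, for Cxcl14 in tenocytes (0.000366) and osteoblasts (0.0294), and for Cxcl16 in vascular endothelium (0.00404). In tenocytes Cxcl14 in suffixes 7 to 9 over 1 to 3 exceeded the fibroblast difference by 1.39 on the log2 scale (SE 0.26, adjusted p = 0.00043). The interactions of Cxcl13 in osteoblasts (0.0414) and vascular endothelium (0.0194) rest on 10 and 4 UMIs in those types.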

How the results depend on the processing

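Of the values per member, 3 reversed, all against fibroblasts at a Leiden resolution of 0.5: Cxcl16 in proliferating cells (log2 fold change 0.16, adjusted p = 0.551), Cxcl14 in proliferating cells (0.33, adjusted p = 0.429) and Ccl19 in tenocytes (0.30, adjusted p = 0.386). These names covered other cells at that resolution. The proliferating cluster, led by Cxcl5 and Cdca3, held 2184 cells and the tenocyte cluster 2788, against 627 and 736 in the main clustering. Pairs of a member and a type called higher numbered 4, and 7 at resolutions 0.5 and 2 and with at least 20 cells per sum. Leaving out 1 library gave 3 to 7 (7 without rest 2 and without resolved 1), and 33 to 39 lower pairs. Without the libraries of suffixes 4 to 6, an alternative added after seeing the data, 3 pairs were higher and 34 lower, and the perivascular call of Ccl19 was lost (0.80, adjusted p = 0.0525). Cluster pairs called lower fell from 17 to 9 with cells thinned to 2000 UMIs. Members differing between runs in fibroblasts numbered 5, and 3 at resolution 2, where the fibroblast sums held other cells, and 4 to 5 without 1 library. In other types 4 pairs were called over the runs, and 2 to 5 without 1 library (2 without rest 2). The causes of these changes were not tested. Same-numbered libraries of different labels correlated in their deviations by -0.35 to 0.54, so the numbers were not read as pairing, and with the replicate block 0 members were called by label, as without it. With few or no UMIs of Cx3cl1, Cxcl13 and Ccl21a in most sums outside their main types, differences there were not detectable at this depth.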
